A study of Mus musculus with 12 samples.

Results

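Hyaluronan is a long, unsulfated sugar polymer of the extracellular matrix, and the genes described here are those that make it, break it down and bind it: the synthases Has1, Has2 and Has3, the breakdown genes Hyal1, Hyal2 and Cemip, and the binding genes Vcan, Cd44 and Tnfaip6. They were chosen by name, 9 of the 40760 genes in the count table, and 8 of them (all but Has3) passed the filter on low counts that left 17418 genes for testing. The synthases span the plasma membrane, join UDP-glucuronic acid and UDP-N-acetylglucosamine, and push the growing chain out of the cell. Outside, long chains are cut by hyaluronidases and by the Cemip protein, and they are held in the matrix by versican, at the cell surface by the receptor CD44, and cross-linked by TSG-6, the product of Tnfaip6. Lung fibroblasts are a main source of the polymer, and it accumulates in the lung after injury.

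The libraries were made from CD140a+ cells (CD140a is the receptor Pdgfra) sorted by flow cytometry from the lungs of male mice, and the question behind them was how loss of Pear1, a membrane receptor, changes the mesenchymal cells of the fibrotic lung. There were 4 groups of 3 libraries: WT and Pear1-/- mice, each with vehicle or with bleo, where bleo is bleomycin, a DNA-damaging drug given into the airways to cause lung fibrosis. Per the study's methods, mice were C57BL/6 and 8 to 12 weeks old unless stated otherwise, and the Pear1-/- allele is a constitutive knockout-first (tm1a) allele, in which a transcript-trapping cassette sits between exons 6 and 7, in every cell type. For these libraries the sources used here gave no bleo dose, day of harvest or number of mice per library. The p-values thus measure only the spread between libraries, which need not be the spread between mice.

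Total counts ran from 6702948 to 10447101 per library, and a count of 3 or fewer was not taken as detected. Values per library below are the authors' normalized counts (raw count divided by the library's size factor), a gene was called where it passed both a fold change above 2 and an adjusted p under 0.05 in edgeR's quasi-likelihood test, and SE is the standard error of a log2 fold change. Pear1 itself had 519 to 576 normalized counts in WT vehicle and 501 to 547 in the libraries labelled Pear1-/- vehicle (log2 fold change -0.08, SE 0.0732, adjusted p = 0.470). In bleo it was higher in the libraries labelled Pear1-/- (344 to 372) than in WT (239 to 266). These counts thus showed no loss of Pear1 transcript in the libraries labelled Pear1-/-, and the reason was not tested. A count over the whole gene includes exons upstream of the cassette, and reads on either side of it were not examined apart. The genotype was therefore not checked, and Pear1-/- below means the libraries so labelled. WT vehicle replicate 2 stood apart from its group when pairs of libraries were compared by the chi-square of their counts over its degrees of freedom, whose value is 1 where only counting noise separates them. It was 21.2 and 21.8 against WT vehicle replicates 1 and 3 and 1.73 to 2.67 against the Pear1-/- vehicle libraries. Among themselves the Pear1-/- vehicle libraries had 1.44 (replicates 1 and 2), 4.31 (1 and 3) and 4.82 (2 and 3). WT vehicle replicate 2 was thus nearer to each of them than their replicate 3 was to the others. The remaining pairs within a group had 1.35 to 1.58, little above counting noise. Pdgfra, the sorting marker, had 4195 to 4802 normalized counts in WT vehicle and 1338 to 1394 in WT bleo, and 4125 to 4203 in Pear1-/- vehicle and 2369.9 to 2403 in Pear1-/- bleo. The summed normalized counts of 18 leukocyte markers were 31619 to 46702 in WT vehicle and 155911 to 158126 in WT bleo, and 45768 to 50235 and 73548 to 75052 in the same Pear1-/- groups, and none of the 18 was at or under the floor in every library. Lyz2 carried much of this sum (mean 74718 in WT bleo and 34117 in Pear1-/- bleo). By their means 15 of the 18 were highest in WT bleo, and 7 of the 18 were lower in Pear1-/- bleo than in Pear1-/- vehicle, Ptprc, the pan-leukocyte marker CD45 (3365 and 3818), and S100a8 (821 and 7284) among them. Bulk libraries cannot tell fewer cells of a type from less RNA per cell, for any gene below.

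The upstream sequences of 4 of the genes are printed because these genes changed with bleo and their promoters hold different short motifs. They come from RefSeq (GRCm38.p6, 7 of the 9 genes matched) and run, on the strand of the gene and 5′ to 3′, up to the last base before both the RefSeq and the GENCODE start of the gene. The searched motifs are in capitals: the cAMP response element TGACGTCA, the AP-1 site TGANTCA, the TATA box TATAAA, the GC box GGGCGG and the CCAAT box CCAAT, each on both strands.
Has1 (chr17:17855206-17855438, minus strand): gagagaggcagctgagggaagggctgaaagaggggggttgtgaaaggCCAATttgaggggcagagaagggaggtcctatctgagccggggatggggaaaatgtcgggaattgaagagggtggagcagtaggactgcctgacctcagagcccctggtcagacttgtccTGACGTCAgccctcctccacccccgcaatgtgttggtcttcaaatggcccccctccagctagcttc
Tnfaip6 (chr2:52037863-52038008, plus strand): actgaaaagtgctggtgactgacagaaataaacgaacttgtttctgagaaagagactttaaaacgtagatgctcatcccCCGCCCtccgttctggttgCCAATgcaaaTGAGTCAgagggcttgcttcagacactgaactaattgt
Cemip (chr7:84086506-84086755, minus strand): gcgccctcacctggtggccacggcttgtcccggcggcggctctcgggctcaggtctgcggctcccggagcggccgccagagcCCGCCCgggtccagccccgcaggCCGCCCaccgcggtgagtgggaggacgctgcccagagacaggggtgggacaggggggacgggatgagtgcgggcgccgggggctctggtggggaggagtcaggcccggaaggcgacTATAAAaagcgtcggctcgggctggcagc
Hyal1 (chr9:107576700-107576926, plus strand): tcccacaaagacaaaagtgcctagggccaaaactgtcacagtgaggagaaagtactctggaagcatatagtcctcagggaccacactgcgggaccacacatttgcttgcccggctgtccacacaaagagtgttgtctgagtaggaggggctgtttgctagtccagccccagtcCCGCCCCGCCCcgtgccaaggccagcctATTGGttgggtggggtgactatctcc
In the Has1 sequence the cAMP response element began 83 bases before the RefSeq start, and 1.79% of all 32851 RefSeq promoter windows of 300 bases held one. The AP-1 site of Tnfaip6 began 142 bases before its start (7.81% of windows held one), and the TATA box of Cemip 29 bases before its start (13.6%). Has1, Tnfaip6 and Hyal1 each held a CCAAT box (37.4% of windows), and Tnfaip6, Cemip and Hyal1 each held a GC box (35.7%), of which the Hyal1 sequence has a pair that overlap by 1 base. A match only says that these letters are in the window.

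Among the synthases, Has1 was by far the most counted in every group, and it fell with bleo in both genotypes while Has2 rose from near the detection floor. Has1 (ENSMUSG00000003665, chr17:17843323-17855205, minus strand) encodes a synthase of the plasma membrane. It had 1073, 3183 and 1017 normalized counts in WT vehicle replicates 1, 2 and 3, and 3134, 3038 and 3558 in Pear1-/- vehicle. In WT bleo it had 266, 247 and 236, and in Pear1-/- bleo 352, 328 and 352. Every bleo library was below every vehicle library, and WT vehicle replicate 2 lay among the Pear1-/- vehicle libraries rather than beside its own group. The log2 fold change with bleo was -2.80 in WT (SE 0.327, adjusted p = 2.32e-06) and -3.23 in Pear1-/- (SE 0.325, adjusted p = 6.28e-07), that is, 6.98-fold and 9.41-fold lower. Without WT vehicle replicate 2 the WT value was -1.99 (adjusted p = 1.46e-25).

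Has2 (ENSMUSG00000022367, chr15:56665627-56694539, minus strand), which encodes the synthase that the embryo cannot do without, was scarce throughout. Its raw counts were 5, 3 and 1 in WT vehicle and 16, 10 and 13 in WT bleo, and 5, 2 and 1 in Pear1-/- vehicle and 25, 26 and 18 in Pear1-/- bleo. In each vehicle group only 1 of 3 libraries passed the floor of 3 counts, while all bleo libraries did, and the 2 bleo groups did not overlap each other. The log2 fold change with bleo was 1.89 in WT (SE 0.526, adjusted p = 0.00501) and 2.93 in Pear1-/- (SE 0.502, adjusted p = 0.000135), and both were called. Has2 passed the filter on low counts only through its bleo groups, where it was higher, so these calls say little beyond the counts. On summed counts the ratio was 3.80 in WT (95% interval 1.81 to 8.93) and 7.88 in Pear1-/- (3.78 to 19.0), intervals that cover counting error only. Leaving out 1 library gave 1.51 (adjusted p = 0.0263, without WT vehicle replicate 3) to 2.52 (without WT vehicle replicate 1) in WT, and 2.60 (without Pear1-/- vehicle replicate 3) to 3.66 (without Pear1-/- vehicle replicate 1) in Pear1-/-. With limma on variance-stabilized values, which shrink the differences of low counts, Has2 had 0.57 in WT and 0.94 in Pear1-/- and missed the fold criterion in both. Has2 shares 182 exonic bases (4.30%) with the antisense gene Has2os, which the library kit could not separate by strand and which fell with bleo in WT (log2 fold change -1.33, adjusted p = 0.00857) and in Pear1-/- (-1.11, adjusted p = 0.0161).

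Has3 (ENSMUSG00000031910, chr8:106870242-106884566, plus strand), which encodes a synthase of shorter chains, did not pass the filter. Its raw counts were 4, 5 and 10 in WT vehicle and 0, 1 and 4 in WT bleo, and 0, 2 and 1 in Pear1-/- vehicle and 9, 5 and 7 in Pear1-/- bleo. Over the 3 libraries they summed to 19 in WT vehicle and 5 in WT bleo, a ratio of 0.231 (95% interval 0.0674 to 0.640), and to 3 and 21 in the Pear1-/- groups, a ratio of 6.40 (1.91 to 33.5). Fits without the filter did test Has3, and there its difference in bleo effect between the genotypes was called both by edgeR (log2 scale 4.47, SE 1.29, adjusted p = 0.00523) and by DESeq2 (4.78, adjusted p = 0.0154). Without the filter, edgeR also called it higher with bleo in Pear1-/- (2.59, adjusted p = 0.0211) and, between the vehicle groups, lower in Pear1-/- (-2.61, adjusted p = 0.0460), and DESeq2 called neither (adjusted p = 0.0551 and 0.117). With bleo in WT it was called by neither (adjusted p = 0.0658 by edgeR and 0.0844 by DESeq2). Fitted values from so few counts are imprecise, the SE of the difference between the genotypes being 1.29 by edgeR and 1.60 by DESeq2. Has3 shares 352 exonic bases (5.52%) with the antisense gene Chtf8, which had 5337 counts over the 12 libraries against 48 for Has3. How reads of that stretch were assigned is not given.

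Compared per kilobase of exon, Has1 made up 99.3% ± 0.403 of the 3 synthases' normalized counts in WT vehicle and 94.4% ± 1.10 in WT bleo, and 99.9% ± 0.0532 in Pear1-/- vehicle and 92.9% ± 0.867 in Pear1-/- bleo (SD, n = 3). The Has2 share was 0.273% and 0.0862% in the vehicle groups and 5.11% and 5.94% in WT bleo and Pear1-/- bleo. Has1 was thus the leading synthase transcript in every library, at a lower share in each bleo library than in each vehicle library.

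**Figure D1:**
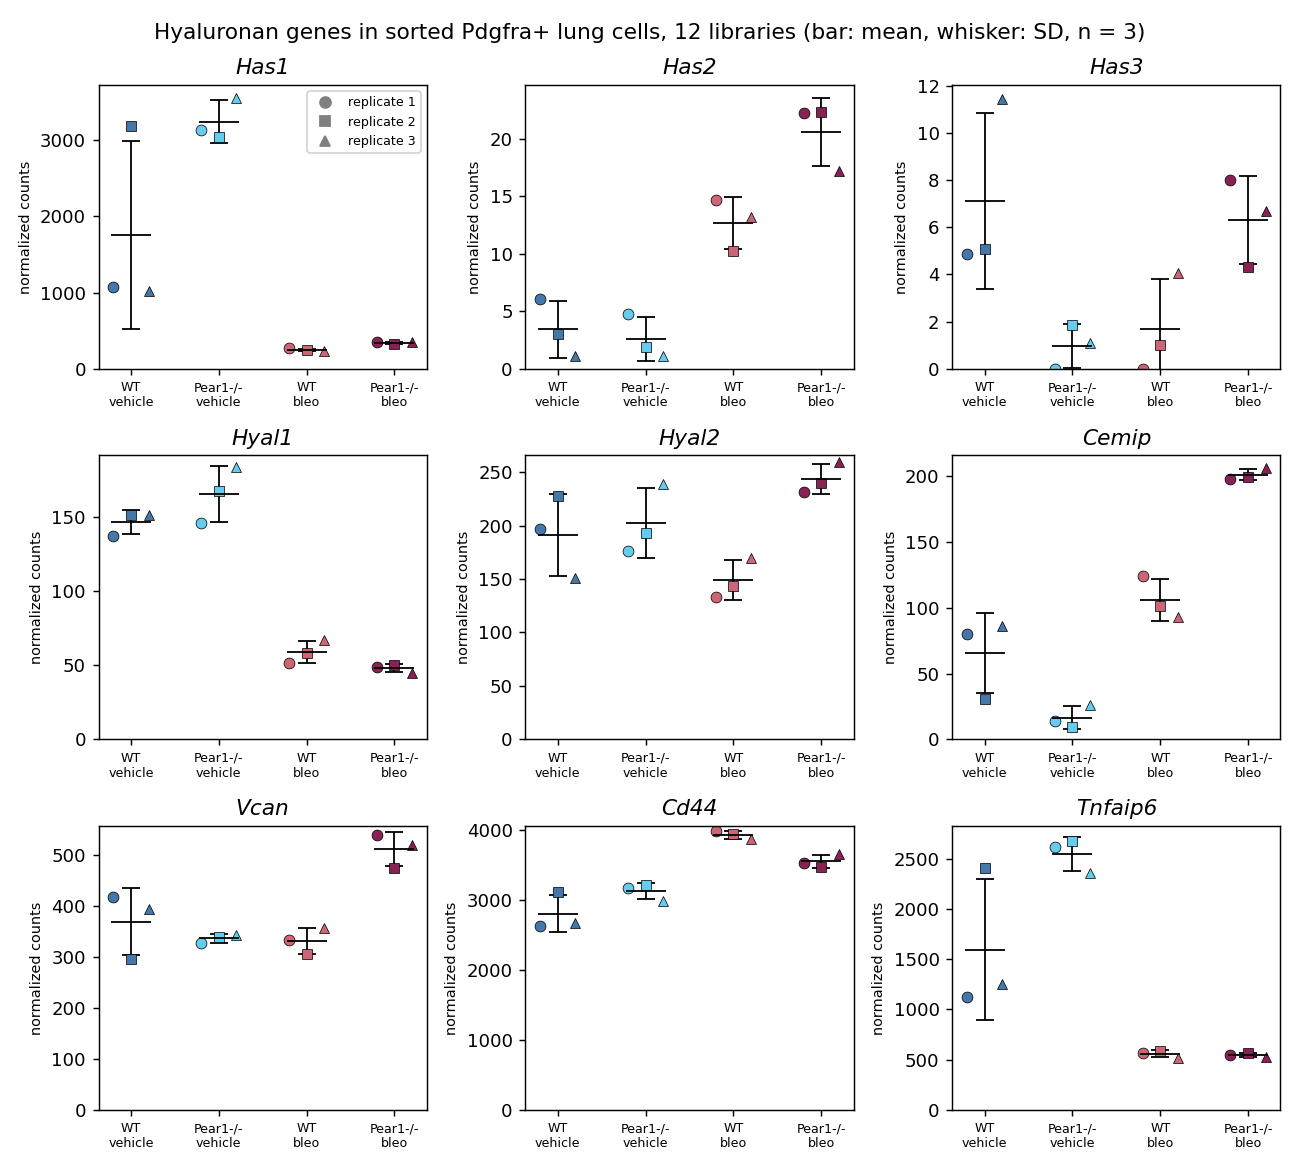
Normalized counts (vertical axes, linear and starting at 0) of the 9 hyaluronan genes in each of the 12 libraries, by group; marker shapes are replicates, the bar is the mean and the whisker the SD (n = 3). Has1, Hyal1 and Tnfaip6 lie lower in both bleo groups, Has2 and Cemip lie highest in Pear1-/- bleo, and in WT vehicle the square of replicate 2 lies apart for Has1, Tnfaip6 and Cemip.

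The breakdown genes moved in different directions: Hyal1 fell with bleo in both genotypes, Cemip rose most in Pear1-/-, and Hyal2 was called in neither genotype. Hyal1 (ENSMUSG00000010051, chr9:107576927-107581710, plus strand) encodes a hyaluronidase of the lysosome. It had 137, 151 and 151 normalized counts in WT vehicle and 51.4, 58.1 and 66.8 in WT bleo, and 146, 167 and 183 in Pear1-/- vehicle and 48.8, 49.9 and 44.8 in Pear1-/- bleo. The bleo and vehicle libraries did not overlap in either genotype. With bleo its log2 fold change came to -1.31 in WT (SE 0.135, adjusted p = 6.36e-07) and -1.78 in Pear1-/- (SE 0.135, adjusted p = 2.66e-08), or 2.48-fold and 3.43-fold lower. With limma on variance-stabilized values the WT value was -0.98, just under the fold criterion. Hyal1 shares 1920 of its exonic bases (50.8%) with Nat6 on the same strand, whose log2 fold changes were 0.22 (SE 0.173, adjusted p = 0.267) and 0.25 (SE 0.163, adjusted p = 0.202), so reads of the shared stretch could be assigned to either gene.

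Hyal2 (ENSMUSG00000010047, chr9:107567945-107572779, plus strand), next to Hyal1, encodes a hyaluronidase anchored at the cell surface. It had 196, 227 and 151 normalized counts in WT vehicle and 133, 144 and 170.1 in WT bleo, and 176, 193 and 239 in Pear1-/- vehicle and 232, 239.8 and 259 in Pear1-/- bleo. The 2 vehicle groups overlapped each other and each overlapped its neighbours in level, while the 2 bleo groups were apart. The log2 fold change with bleo was -0.36 in WT (SE 0.149, adjusted p = 0.0454) and 0.27 in Pear1-/- (SE 0.139, adjusted p = 0.0993), neither of them called. Of the 12 fits that each leave out 1 library, 2 kept the WT value under an adjusted p of 0.05, and without WT vehicle replicate 2 it was -0.15 (adjusted p = 0.334).

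Cemip (ENSMUSG00000052353, chr7:83932857-84086502, minus strand) encodes a hyaluronan-binding protein needed to cut the polymer at the surface of fibroblasts. It had 80.0, 30.4 and 85.9 normalized counts in WT vehicle and 14.2, 9.28 and 26.2 in Pear1-/- vehicle. In WT bleo it had 124, 101 and 93.1, and in Pear1-/- bleo 198, 199 and 206. Ranked by group mean, the 4 groups ran from Pear1-/- vehicle through WT vehicle and WT bleo to Pear1-/- bleo with no overlap between neighbours, although WT vehicle replicate 2 came close to the highest Pear1-/- vehicle library. The log2 fold change with bleo was 3.63 in Pear1-/- (SE 0.323, adjusted p = 1.60e-07, 12.4-fold higher) and 0.73 in WT (SE 0.279, adjusted p = 0.0301), and the first passed the fold criterion while the second did not. Without WT vehicle replicate 2 the WT value was 0.43 (adjusted p = 0.0205).

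Of the binding genes, Tnfaip6 fell with bleo in both genotypes, Cd44 was higher with bleo by less than the fold criterion, and Vcan was highest in Pear1-/- bleo. Tnfaip6 (ENSMUSG00000053475, chr2:52038009-52056686, plus strand) encodes TSG-6, which moves protein chains of inter-alpha-trypsin inhibitor onto hyaluronan. It had 1127, 2409 and 1256 normalized counts in WT vehicle and 567, 589 and 520.4 in WT bleo, and 2617, 2675 and 2356 in Pear1-/- vehicle and 548, 567 and 529 in Pear1-/- bleo. All bleo libraries were below all vehicle libraries, the 2 bleo groups overlapped, and WT vehicle replicate 2 lay inside the range of the Pear1-/- vehicle libraries. With bleo its log2 fold change came to -1.5 in WT (SE 0.201, adjusted p = 9.68e-06) and -2.21 in Pear1-/- (SE 0.203, adjusted p = 2.34e-07), or 2.84-fold and 4.64-fold lower. Without WT vehicle replicate 2 the WT value was -1.02 (adjusted p = 5.17e-17).

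**Figure D2:**
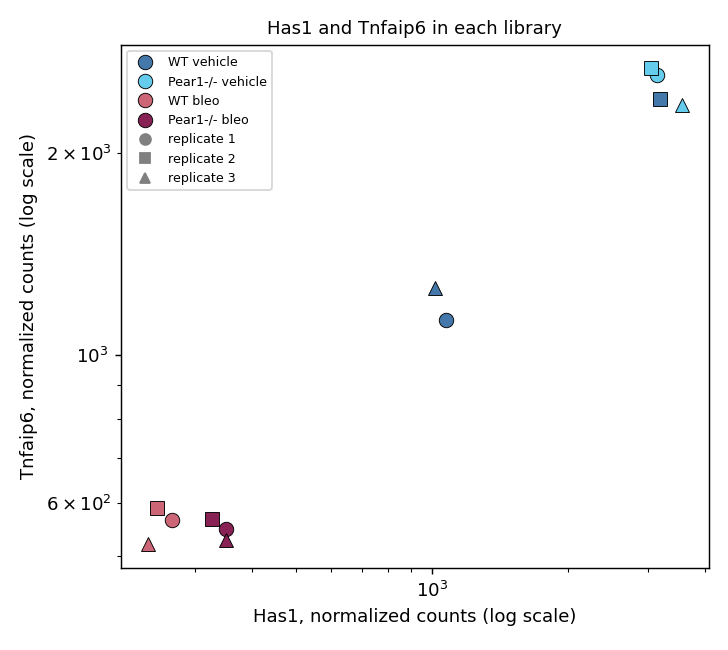
Has1 (horizontal) against Tnfaip6 (vertical) in normalized counts on log axes, 1 point per library, with colour for group and shape for replicate. The 6 bleo libraries sit at the lower left, and WT vehicle replicate 2 (3183 and 2409) sits with the Pear1-/- vehicle libraries while WT vehicle replicates 1 and 3 lie between.

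Cd44 (ENSMUSG00000005087, chr2:102811141-102901665, minus strand) encodes the main cell surface receptor for hyaluronan, found on fibroblasts and on leukocytes. It had 2629, 3113 and 2675 normalized counts in WT vehicle and 3988, 3940.5 and 3880.5 in WT bleo, and 3179.7, 3219 and 2995 in Pear1-/- vehicle and 3533, 3474 and 3660 in Pear1-/- bleo. Each bleo group lay above both vehicle groups, and WT bleo lay above Pear1-/- bleo with no overlap. Its bleo effect was a log2 fold change of 0.50 in WT (SE 0.0703, adjusted p = 1.61e-05) and 0.19 in Pear1-/- (SE 0.0701, adjusted p = 0.0296), and 3 of the 12 fits that leave out 1 library kept the Pear1-/- value under an adjusted p of 0.05. The leukocyte marker sum stood in the same order over the 4 groups, WT vehicle, Pear1-/- vehicle, Pear1-/- bleo, WT bleo, by its mean (36846, 47340, 74222 and 157353), and 7 of its 18 genes had that order one by one. Its part in the Cd44 difference was not tested.

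**Figure D3:**
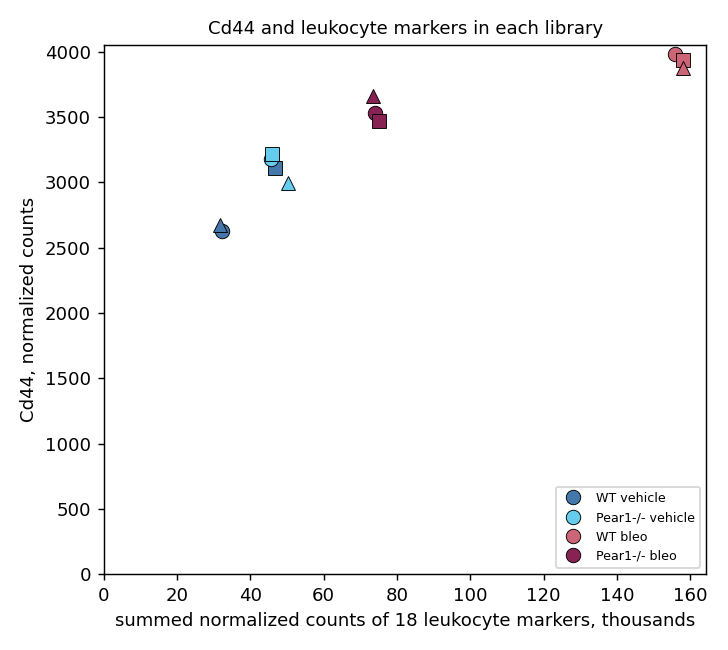
Cd44 in normalized counts (vertical, from 0) against the summed normalized counts of 18 leukocyte markers (horizontal, from 0), 1 point per library. The WT bleo libraries lie far to the right at 3880.5 to 3988 Cd44 counts, and the vehicle libraries at the left at 2629 to 3219.

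Vcan (ENSMUSG00000021614, chr13:89655312-89742509, minus strand) encodes versican, a large proteoglycan whose end domain holds hyaluronan. It had 418, 295 and 395 normalized counts in WT vehicle and 332, 306 and 357 in WT bleo, and 327, 339.5 and 343 in Pear1-/- vehicle and 539.9, 474 and 519 in Pear1-/- bleo. The Pear1-/- bleo libraries were above all others, and the other 3 groups overlapped. Its bleo effect was a log2 fold change of 0.61 in Pear1-/- (SE 0.110, adjusted p = 0.000205) and -0.14 in WT (SE 0.113, adjusted p = 0.287). The Pear1-/- value is 1.52-fold and was not called. The summed normalized counts of 12 fibroblast markers were also highest in Pear1-/- bleo, at 291827 to 301511 against 114489 to 182697 in the other libraries, and their part in the difference was not tested. Of the 12, the abundant collagen genes Col1a1, Col1a2 and Col3a1 had their highest mean there, while the other 9, Pdgfra included, were lower in Pear1-/- bleo than in Pear1-/- vehicle.

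Counted over the 8 tested genes, 4 were called with bleo in WT (Has2 higher, and Has1, Hyal1 and Tnfaip6 lower), where 33.9% of all tested genes were called, 10.5% higher and 23.5% lower. Has2 passed the filter only through its bleo groups, so its place in such a count says little. By the adjusted p alone, 7 of the 8 passed in WT, beside 68.0% of all tested genes, and 7 in Pear1-/-, beside 62.3%. In Pear1-/- 5 were called (Has2, again with that limit, and Cemip higher, and the same 3 lower), where 27.8% of all tested genes were, 8.38% higher and 19.4% lower. The median log2 fold change of the 8 was -0.25 in WT and 0.23 in Pear1-/-, beside -0.07 and -0.05 over all tested genes. A median near 0 here holds genes that moved in opposite directions.

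The next comparison was of genotypes within a treatment. In vehicle, Cemip alone of the 8 tested genes was called, where 2.36% of all tested genes were, 0.0344% higher and 2.33% lower, and where 4.50% passed the adjusted p alone. Its log2 fold change in Pear1-/- against WT was -2.0 (SE 0.376, adjusted p = 0.0368). That call held in only 1 of the 12 fits that leave out 1 library, the one without WT vehicle replicate 2 (-2.29, adjusted p = 2.71e-10), and it was lost with limma on log2 values (adjusted p = 0.0829) and in a fit of the vehicle groups alone (adjusted p = 0.229). The fold was about as large in those fits, at -2.41 to -1.64 in the 11 that lost the call by leaving out a library, -1.90 with limma and -2.01 with the vehicle groups alone. In the same 11 fits edgeR called no gene at all, although 2955 to 6917 genes had an unadjusted p under 0.05, and with the vehicle groups alone it called none of the 3091 with such a p. Has1 (0.88, SE 0.295, adjusted p = 0.0737) and Tnfaip6 (0.67, SE 0.193, adjusted p = 0.0553) were not called. With no filter both passed the adjusted p but not the fold criterion (Has1 0.94, adjusted p = 2.70e-16, and Tnfaip6 0.74, adjusted p = 4.94e-10). That fit gave Has1 an SE of 0.106 and called 2990 genes between vehicle groups, against 411 with the filter, so its p-values call for caution. Tnfaip6 also passed the adjusted p alone with DESeq2 (0.67, adjusted p = 0.0457) and with the replicate block (0.72, adjusted p = 0.0437). Without WT vehicle replicate 2 both genes were called, at 1.70 (adjusted p = 7.65e-25) and 1.17 (adjusted p = 2.60e-19). The 2 replicates that remain then stand for WT vehicle, and which of the 3 represents that group cannot be told from the counts. In bleo, none of the 8 genes was called by edgeR, nor by DESeq2 or limma, where edgeR called 15.0% of all tested genes, 6.26% higher and 8.76% lower. Of the 8 genes, 3 had an adjusted p under 0.05, all 3 higher in Pear1-/-, where 46.0% of all tested genes passed that p: Cemip (0.91, SE 0.242, adjusted p = 0.00635), Hyal2 (0.70, SE 0.143, adjusted p = 0.000980) and Vcan (0.61, SE 0.110, adjusted p = 0.000314). Without WT bleo replicate 1, Cemip was called, at 1.03 (adjusted p = 0.00946).

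Whether bleo acted differently in the 2 genotypes was tested as an interaction, the bleo effect in Pear1-/- minus that in WT. Cemip was called, where 15.7% of all tested genes were (8.61% higher and 7.06% lower), with a difference of 2.90 on the log2 scale (SE 0.447, adjusted p = 0.000146). That difference takes in both its lower level in Pear1-/- vehicle and its higher level in Pear1-/- bleo, and it was 2.54 to 3.30 in the fits that each leave out 1 library. The differences of Vcan (0.75, SE 0.157, adjusted p = 0.00179), Hyal2 (0.63, SE 0.204, adjusted p = 0.0246) and Cd44 (-0.31, SE 0.0991, adjusted p = 0.0222) passed the adjusted p alone, as 37.0% of all tested genes did, and only that of Vcan did so in all 12 of those fits, against 4 of 12 for Hyal2 and 5 of 12 for Cd44. Hyal2 also missed it with DESeq2 (adjusted p = 0.0515) and with limma on log2 values (adjusted p = 0.0647), and Cd44 with limma on log2 values (adjusted p = 0.0572) and on variance-stabilized values (adjusted p = 0.0501). Has1 (-0.43, adjusted p = 0.468) and Tnfaip6 (-0.71, adjusted p = 0.0588) did not pass. With no filter on low counts both passed the adjusted p but not the fold criterion (Has1 -0.47, adjusted p = 0.0177, and Tnfaip6 -0.77, adjusted p = 9.38e-06). The SE of Has1 was 0.156 in that fit, against 0.438 with the filter. Tnfaip6 also passed the adjusted p alone with the replicate block (-0.76, adjusted p = 0.0234). Without WT vehicle replicate 2 both genes were called, at -1.27 (adjusted p = 1.09e-13) and -1.22 (adjusted p = 7.13e-15). Has2 had a difference of 1.03 (SE 0.793, adjusted p = 0.330).

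**Figure D4:**
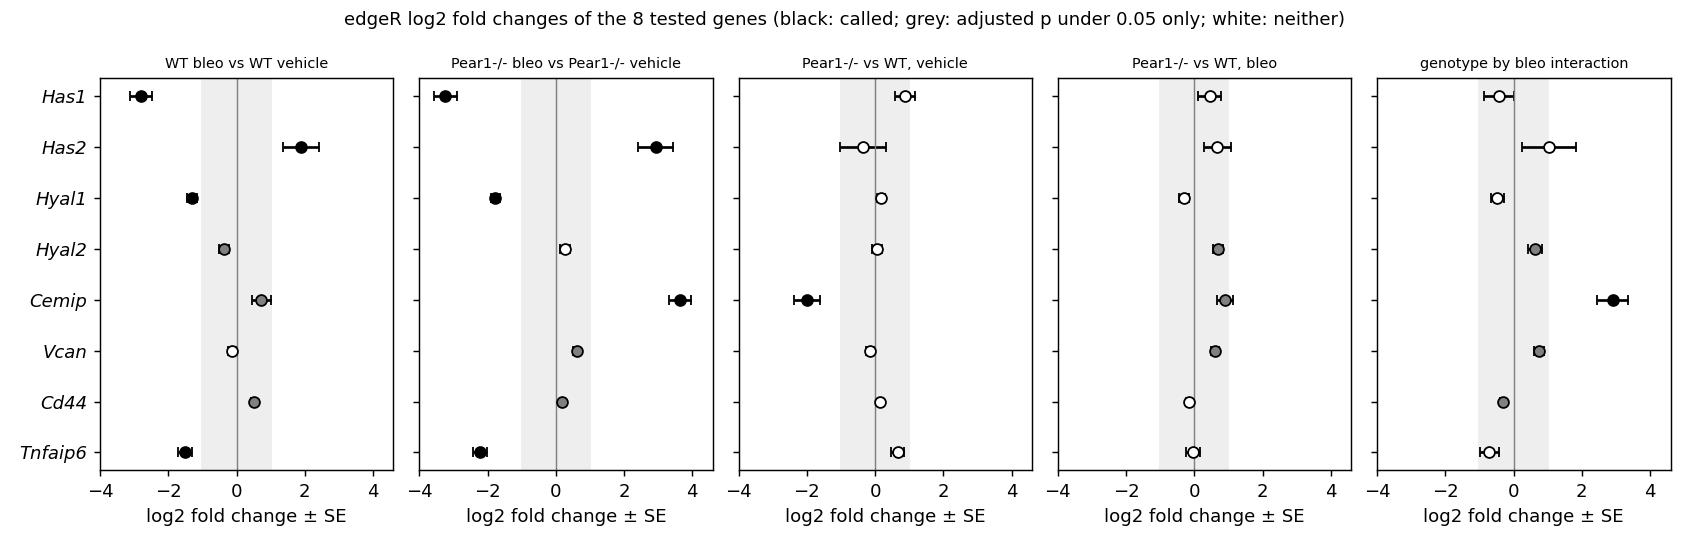
Log2 fold changes (horizontal, whiskers the SE) of the 8 tested genes in the 4 group comparisons and the genotype by bleo interaction; black points were called, grey had an adjusted p under 0.05 but a fold change of 2 or less, and the grey band marks that range. Has1, Hyal1 and Tnfaip6 lie left of the band with bleo in both genotypes, and Cemip lies right of it in Pear1-/- and in the interaction.

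Of 7 enzymes that supply the sugar precursors, Gfpt2, which catalyses the first step of hexosamine synthesis, was the one called with bleo, beside 33.9% of all tested genes in WT and 27.8% in Pear1-/-. It was lower in WT (log2 fold change -2.18, SE 0.167, adjusted p = 2.04e-08) and in Pear1-/- (-2.04, SE 0.162, adjusted p = 4.61e-08). It had 1335, 2249 and 1264 normalized counts in WT vehicle and 324 to 386 in WT bleo, and 2230.0 to 2383 in Pear1-/- vehicle and 537 to 583 in Pear1-/- bleo. WT vehicle replicate 2 again lay by the Pear1-/- vehicle libraries. By the adjusted p alone, 4 of the 7 were lower with bleo in WT, Pgm3 (-0.74, adjusted p = 7.03e-05) among them, and 1 was higher (Gnpnat1, 0.69, adjusted p = 0.000317) and 2 were lower (Uap1, -0.68, adjusted p = 7.97e-05, and Gfpt2) in Pear1-/-, beside 68.0% and 62.3% of all tested genes. In bleo, 4 of the 7 had an adjusted p under 0.05 between genotypes, all higher in Pear1-/- and none of them called, while 46.0% of all tested genes passed that p.

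Of 8 other degrading enzymes in the table, 6 were tested. With bleo 2 were called higher and 3 lower in WT, where 10.5% and 23.5% of all tested genes were, and 1 was called higher and 2 lower in Pear1-/-, where 8.38% and 19.4% were. The lower ones were scarce genes that passed the filter through their higher groups, so their count says little. Hyal6 had 45 summed counts in WT vehicle and 1 in WT bleo, and 31 and 0 in Pear1-/-. Hyal4 had 41 and 14, and 33 and 5, and Hyal3, called in WT, had 42 and 7. Hexa, which encodes a lysosomal enzyme of sugar chain breakdown, had a log2 fold change of 1.26 in WT and 0.55 in Pear1-/-, the second under the fold criterion. That of Gusb, the lysosomal beta-glucuronidase, was 1.41 in WT and 1.18 in Pear1-/-, and both were called.

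Of 12 other binding proteins, 8 were tested, with 2 called higher and 2 lower in WT (10.5% and 23.5% of all tested genes) and 3 called higher and 3 lower in Pear1-/- (8.38% and 19.4%). Of these, Ncan (60 summed counts in WT vehicle and 7 in Pear1-/- vehicle) had no count in bleo, and Hapln3 had 18 and 2 in the vehicle groups, so both passed the filter through their higher groups. Stab1, a scavenger receptor of macrophages and endothelium, had 262 to 287 normalized counts in WT vehicle and 2064 to 2238 in WT bleo, and 239 to 259 in Pear1-/- vehicle and 847 to 918 in Pear1-/- bleo (log2 fold change with bleo 2.98 in WT and 1.84 in Pear1-/-, both called). The mean leukocyte marker sum rose too, from 36846 to 157353 in WT and from 47340 to 74222 in Pear1-/-. In Pear1-/-, 7 of its 18 genes were lower with bleo. Its part in the values of Stab1, Hexa and Gusb was not tested. Hmmr, an intracellular and surface hyaluronan-binding protein of dividing cells, had a log2 fold change of 2.09 in Pear1-/- and 0.92 in WT (the latter under the fold criterion), with a difference between the genotypes of 1.16 (adjusted p = 0.00438). Stab2, a clearance receptor of endothelium, had 88.5, 15.2 and 80.1 normalized counts in WT vehicle replicates 1, 2 and 3. It fell with bleo in both genotypes (log2 fold change -2.91 in WT and -2.77 in Pear1-/-), with 13 summed counts left in Pear1-/- bleo. Stab2 too passed the filter through its higher groups, so these values say little. Lyve1, the lymphatic hyaluronan receptor, fell by 1.14 in Pear1-/- and had a value of -0.92 in WT, which was not called. The summed normalized counts of 8 endothelial markers were lower with bleo as well, at 3264 to 3906 in WT vehicle and 1828 to 1926 in WT bleo, and at 3766 to 4091 and 2034 to 2164 in the same Pear1-/- groups, and their part in the values of Stab2 and Lyve1 was not tested.

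Among genes listed as partners of TSG-6, Itih3, Itih4 and Itih5, named for the inter-alpha-trypsin inhibitor heavy chain family, fell with bleo in both genotypes. Whether the product of each is a partner of TSG-6 was not tested. Of 7 genes (Itih1 to Itih5, Ambp and the pentraxin Ptx3), 6 were called lower with bleo in WT and 6 in Pear1-/-, beside 23.5% and 19.4% of all tested genes. Some of those calls rest on scarce genes that passed the filter through their higher groups, with no bleo library over the floor of 3 counts: Itih1 in both genotypes (32 summed counts in WT vehicle and 4 in WT bleo, and 29 and 0 in Pear1-/-), Ambp in WT (22 and 7) and Itih2 in Pear1-/- (144 and 5). Itih5 had 221, 420.1 and 222 normalized counts in WT vehicle and 67.0 to 107 in WT bleo, and 410.3 to 485 in Pear1-/- vehicle and 43.8 to 47.9 in Pear1-/- bleo. Itih4 fell by 1.04 in WT and by 2.64 in Pear1-/-, a difference of -1.60 (SE 0.163, adjusted p = 3.13e-06). Itih3 fell by 1.01 and 1.08, and Ptx3 by 1.29 in Pear1-/-, its WT value of -0.90 missing the fold criterion. The summed normalized counts of 8 epithelial markers were lower with bleo as well, at 17713 to 21931 in WT vehicle and 9257 to 9454 in WT bleo, and at 21134 to 25019 and 3149 to 3323 in the same Pear1-/- groups. Their part in the values of the listed Itih genes, Ambp and Ptx3 was not tested.

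**Figure D5:**
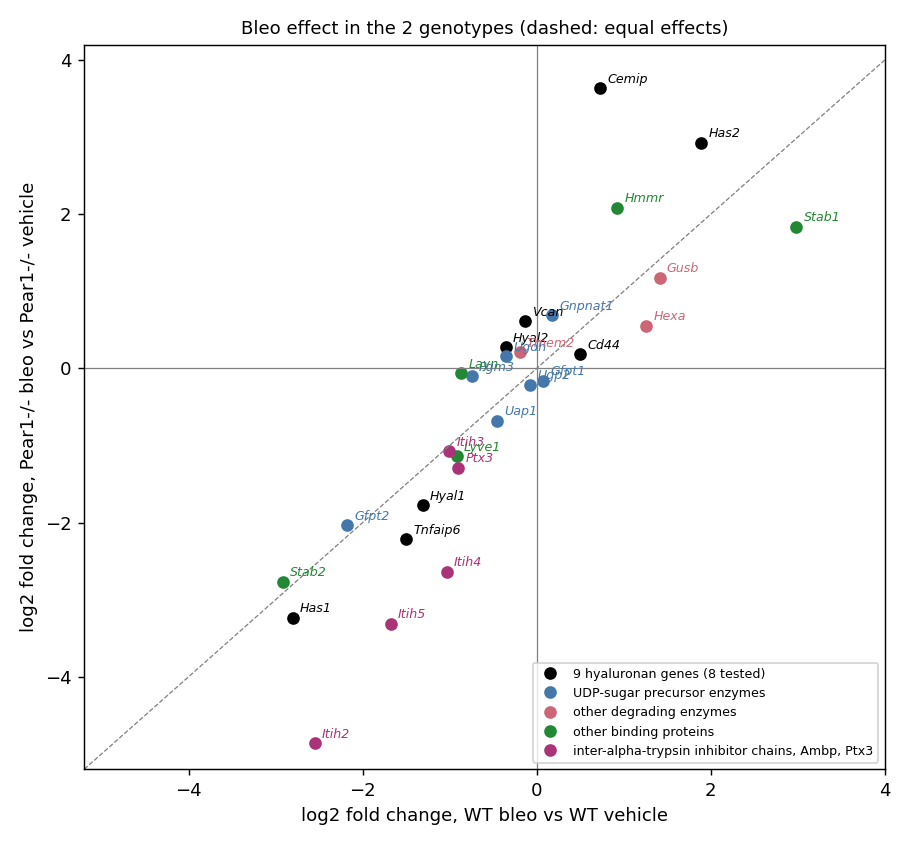
Log2 fold change with bleo in WT (horizontal) against that in Pear1-/- (vertical) for the 28 genes of the 5 sets drawn, which are the tested hyaluronan genes and, of the other lists, those whose mean log2 CPM was 1 or more; the dashed line marks equal effects. Cemip lies far above that line (0.73 against 3.63), and Itih2, Itih4 and Itih5 lie below it.

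Some genes outside the set followed the same pattern over the 12 libraries, measured as the root mean square difference of centred log2 CPM. For Has1 the nearest were Scara5 (0.153), S100a9 (0.198) and S100a8 (0.199), and for Tnfaip6 they were Dcn (0.174), Cyp2e1 (0.179) and Slc2a3 (0.182). For Hyal1 they were Nbl1 (0.114), Sorcs2 (0.130) and Gata6 (0.131). The nearest to Cemip were Kif11 (0.404), Inhba (0.476) and Bmper (0.587), and to Has2 Bub1b (0.325), Tmem26 (0.366) and Cd276 (0.378), at larger distances. For scale, the SD of log2 CPM over the libraries was 1.63 for Has1, 1.02 for Tnfaip6, 0.808 for Hyal1, 1.44 for Cemip and 1.13 for Has2.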

How the data were processed

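Bulk RNA-seq of sorted CD140a+ lung cells gave 12 libraries. The kit used for cDNA (SMART-Seq v4) does not mark strand, and reads were aligned by the authors with HISAT2 to GRCm38. The authors deposited raw read counts per gene, and the counting program is not given in the sources used here. They also deposited a normalized signal, each count divided by a DESeq2 size factor, which is used here to show levels. Groups follow the deposited labels.

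Counts were tested with edgeR 4.0.16 in R 4.3.3 (TMM normalization, filterByExpr, 1 mean per group, glmQLFit with default settings and glmQLFTest, Benjamini-Hochberg adjustment over 17418 genes), and a gene was called at a fold change above 2 and an adjusted p under 0.05. The test was tested on simulated counts before use. Alternatives were DESeq2 1.42.0, limma 3.58.1 on log2(value + 1) and on variance-stabilized values, DESeq2 size factors, no filter on low counts, only the groups compared, a replicate block, leaving out each library, and the adjusted p alone. A quasi-likelihood fit with robust estimation was added after the data were seen, when the number of called genes differed from earlier processing of these data. The study itself used limma with the same fold and p criteria. Intervals of summed counts are exact at 95%.

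The 9 genes were named as members. For each related list, the rule was to name at most the 4 genes with the highest mean log2 CPM among those called in any comparison. Further genes of these lists were named outside that rule, where calls rest on scarce genes or where only the adjusted p was passed. For each member called at least once, the 3 nearest genes whose mean log2 CPM was 3 or more were named. Members and lists were chosen with earlier results of these data known. A gene of the degrading enzymes is not reported here. Gene models are from GENCODE M21 (GRCm38) and promoters from RefSeq (GRCm38.p6).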

Additional observations from a re-analysis of the deposited data

Results flagged for a closer look

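For 4 of the 8 tested genes, the interaction term of the edgeR fit had an adjusted p under 0.05, beside 37.0% of all tested genes. The difference (Pear1-/- minus WT, log2 scale) was 2.90 for Cemip (SE 0.447, adjusted p = 0.000146), with all 3 Pear1-/- bleo libraries above all other libraries and all 3 Pear1-/- vehicle libraries below them. It was 0.75 for Vcan (SE 0.157, adjusted p = 0.00179), 0.63 for Hyal2 (SE 0.204, adjusted p = 0.0246) and -0.31 for Cd44 (SE 0.0991, adjusted p = 0.0222). Hyal2 missed that p with DESeq2 (adjusted p = 0.0515) and limma on log2 values (adjusted p = 0.0647), and Cd44 with limma on log2 (adjusted p = 0.0572) and on variance-stabilized values (adjusted p = 0.0501). Without WT vehicle replicate 2, which resembled the Pear1-/- vehicle libraries, the values were 3.18 for Cemip, 0.81 for Vcan, 0.40 for Hyal2 (adjusted p = 0.0514) and -0.48 for Cd44.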

How the results depend on the processing

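Of the 791 alternative values for single genes, 766 kept their direction and their side of the criteria, and 4 reversed, all of them for genes not called: Vcan with bleo in WT was 0.0016 with no filter on low counts, and between vehicle groups Has2 was 0.27 without WT vehicle replicate 1 (from -1.06 to 0.27 when leaving out any 1 library), and Hyal2 was -0.075 without WT vehicle replicate 3 and -0.02 without Pear1-/- vehicle replicate 3 (from -0.075 to 0.29). The number of members called with bleo in WT was 2 with limma on variance-stabilized values and 7 by the adjusted p alone. Between vehicle groups it was 2 with no filter, 0 with limma on log2 values and 0 when only those groups were fitted. In bleo it was 3 by the adjusted p alone. In the interaction it was 2 with no filter, 2 with DESeq2 and 4 by the adjusted p alone. The gene added with no filter or DESeq2 was Has3 in each case.

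Leaving out 1 library gave 4 members in each fit with bleo in WT and 5 in Pear1-/-, and 0 to 3 between vehicle groups, 0 to 1 in bleo and 1 to 3 in the interaction. Over all genes it gave 5802 to 9192, 4949 to 6685, 0 to 4939, 2372 to 3267 and 2430 to 4468 in the same order, the highest count of each without WT vehicle replicate 2. The number of all genes called with bleo in WT was 5910, and 13669 with no filter, 10085 with DESeq2, 3332 with limma on variance-stabilized values and 11838 by the adjusted p alone. In Pear1-/- it was 4847, and 8019, 2212 and 10852 with no filter, limma on those values and the adjusted p alone. Between vehicle groups it was 411, and 2990 with no filter, 28 and 22 with limma on log2 and on variance-stabilized values, 0 with only those groups and 784 by the adjusted p alone. In bleo it was 2617, and 878 with limma on variance-stabilized values and 8012 by the adjusted p alone, and in the interaction 2729, 1348 and 6442. The cause of these differences was not tested.

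With robust estimation, added after seeing the data, the numbers were 5886, 4825, 578, 2616 and 2701, and the members called were 4, 5, 1, 0 and 1, as without it. Same-numbered libraries did not deviate together (correlations from -0.161 to 0.0997 over 18 pairs), so the numbers do not pair the libraries. With the replicate block the members called were again 4, 5, 1, 0 and 1, and all genes called 5887, 4837, 349, 2582 and 2645. An interaction has no fit with only 2 groups. Depth limits Has2 and Has3, with 125 and 48 counts over all libraries.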
